A study of Mus musculus with 16 samples.

Results

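The TNF superfamily ligands are the membrane-bound or secreted proteins through which T cells signal to cells that carry TNF receptors. The rows of 9 such genes, Tnf, Lta, Ltb, Fasl, Cd40lg, Tnfsf8, Tnfsf10, Tnfsf11 and Tnfsf14, were taken by name from the 55573 genes of the deposited count table. RNA was sequenced from OT1 cells, CD8 T cells on the C57BL/6 background whose transgenic receptor recognises an ovalbumin peptide, sorted by CD8 and congenic surface markers from tumours, 5 days after treatment of the tumour-bearing mice. The 16 libraries fell into 4 groups of 4, named Foxp3UP, MockUP, Foxp3DN and MockDN, and the design text states that mice received Foxp3UP and Mock cells as a mixture. All groups share the OT1 origin, the strain, the transfer and the sorting from tumour. The meaning of UP and DN and the way Foxp3 was imposed are not stated in the labels. Nor is it stated that replicates came from separate animals, so p-values measure only the spread between these samples.

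Ligands of this family assemble as trimers and cluster their receptors on the responding cell. Receptors with a death domain (TNFR1, Fas and the TRAIL receptor) can start caspase-driven death, and the others recruit TRAF adaptors and activate NF-kappaB. CD8 T cells use Fas ligand and TNF against target cells, while lymphotoxin beta, LIGHT, CD40 ligand, CD30 ligand and RANKL act mainly on stromal cells, antigen-presenting cells and other lymphocytes, and most of them are induced when the T cell receptor is engaged.

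The promoters of the genes that passed the test described further on are shown first, except that of Cd40lg, which had no entry. Ltb rose and the others fell, and a role of the promoter motifs in these differences was not tested. RefSeq entries on GRCm38.p6 were found for 8 of the 9 genes, all but Cd40lg. The 250 bases before each start site were searched on both strands for a kappaB-like motif of 10 bases (GGG and CC around any 5 bases), GGAAA (the core that NFAT binds), TGANTCA (AP-1) and GTAAACA (forkhead, the motif class of FOXP3). The stretches below are written 5′ to 3′ on the gene's own strand, stop before the gene span of the count table, and carry every match in capitals. Ltb lies on the plus strand (chr17:35194257-35194438), and Tnfsf8 (chr4:63861348-63861534), Tnfsf11 (chr14:78308044-78308293) and Tnfsf14 (chr17:57194182-57194431) lie on the minus strand.
Ltb: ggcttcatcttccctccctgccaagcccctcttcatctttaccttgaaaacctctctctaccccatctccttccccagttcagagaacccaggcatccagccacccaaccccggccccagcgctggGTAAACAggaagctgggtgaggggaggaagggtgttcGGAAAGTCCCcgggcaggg
Tnfsf8: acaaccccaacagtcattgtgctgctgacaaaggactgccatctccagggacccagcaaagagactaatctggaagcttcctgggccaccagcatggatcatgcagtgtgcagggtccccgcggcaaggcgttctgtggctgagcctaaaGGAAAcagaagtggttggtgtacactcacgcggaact
Tnfsf11: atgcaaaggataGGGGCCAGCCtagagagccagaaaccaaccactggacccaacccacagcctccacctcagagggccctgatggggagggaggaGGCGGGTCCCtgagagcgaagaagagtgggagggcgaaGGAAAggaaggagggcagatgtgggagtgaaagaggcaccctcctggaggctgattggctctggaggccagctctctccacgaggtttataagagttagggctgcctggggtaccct
Tnfsf14: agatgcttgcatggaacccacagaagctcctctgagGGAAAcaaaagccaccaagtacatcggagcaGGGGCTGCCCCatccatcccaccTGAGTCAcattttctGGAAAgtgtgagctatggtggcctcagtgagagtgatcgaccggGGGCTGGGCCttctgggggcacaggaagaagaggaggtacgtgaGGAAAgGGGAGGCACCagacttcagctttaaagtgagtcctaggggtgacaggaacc

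In the Ltb stretch the capitals mark the forkhead letters and a kappaB-like match that overlaps an NFAT core. A further 3 overlapping kappaB-like matches lay between that stretch and the RefSeq start site of Ltb. Tnfsf14 held 4 kappaB-like matches, 3 NFAT cores and the only AP-1 match among the 8 promoters, Tnfsf11 held 2 kappaB-like matches and 1 NFAT core, and Tnfsf8 held 1 NFAT core. The forkhead letters occurred in Ltb alone among the 8. Over all 32851 promoters of the same length, 45.8% held the kappaB-like letters, 55.6% the NFAT core, 6.75% the AP-1 letters and 3.17% the forkhead letters. A match is a description of the sequence and not a measured binding site.

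Tnf, Lta and Ltb are neighbours on chromosome 17 (mm10, positions 35194439 to 35205351 from the start of Ltb to the end of Lta), and none of the 9 genes shared an exon with another annotated gene. All 9 had enough counts to be tested. Library totals ran from 9389477 to 13226590 counts, and the lowest member count was 37 reads, for Cd40lg in Foxp3UP replicate 4. The T cell identity genes Cd3e and Cd8a were abundant in every group, at mean levels of 750 to 816 and 986 to 1147 CPM (counts scaled to the library total, corrected by TMM). Foxp3 was higher in all 4 Foxp3UP libraries (15.1 to 29.4 CPM) than in the MockUP libraries (11.4 to 13.7 CPM), with a log2 fold change of 0.92 ± 0.17 (SE) and an edgeR adjusted p of 0.00233. In the DN arm every Foxp3DN library (10.1 to 10.4 CPM) was below every MockDN library (11.0 to 14.6 CPM). These groups were without overlap for 1.14% of all genes. MockUP replicate 2 stood apart from the other libraries, with 0.279% mitochondrial counts and 4.86% of its counts in its 10 highest genes, and the 5 calls below were also made without it.

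In Foxp3UP against MockUP, lymphotoxin beta rose and 4 ligands fell: CD30 ligand, LIGHT, CD40 ligand and RANKL. Tnf, Lta, Fasl and Tnfsf10 did not pass the test. Of the 9 ligands 5 were thus called at an adjusted p under 0.05 in edgeR's quasi-likelihood test, where 12.1% of the 13711 genes tested were called. The 1 ligand called higher stands against 6.08% of all genes, and the 4 called lower stand against 5.99%. The libraries of the 2 groups did not overlap for these same 5 ligands, against 15.9% of all genes. The median log2 fold change was -0.24 over the 9 ligands and 0.0041 over all genes tested. Because the RNA is from bulk sorted cells, fewer cells expressing a ligand and less RNA per cell cannot be told apart.

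**Figure D1:**
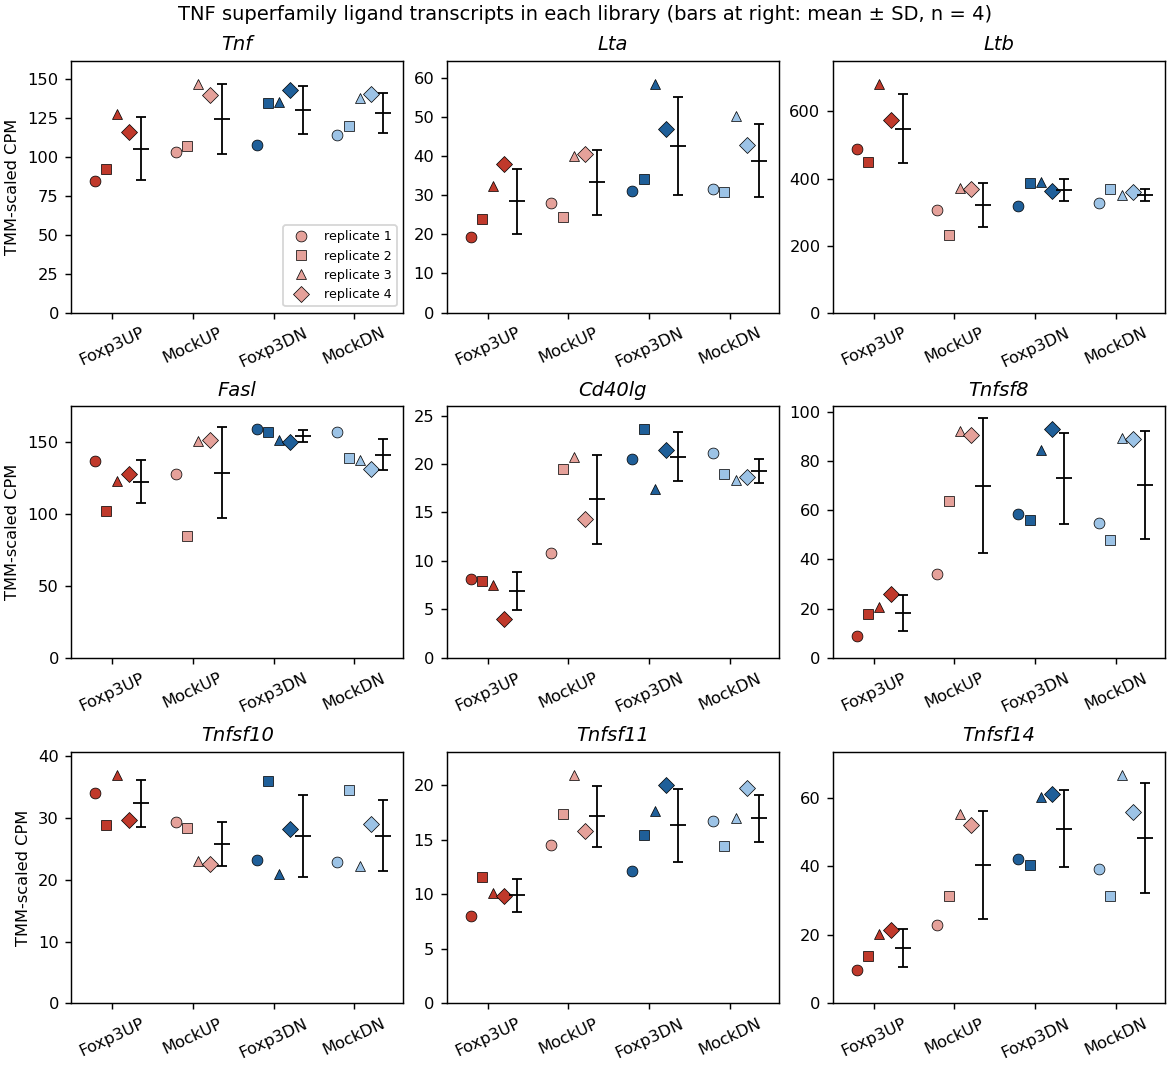
Level of each of the 9 ligand transcripts in each library (TMM-scaled CPM, linear axes from 0), by group, with a symbol per replicate number and the mean ± SD (n = 4) at the right of each group. Ltb is highest, and Tnfsf8, Tnfsf14, Cd40lg and Tnfsf11 are lowest, in all 4 Foxp3UP libraries relative to MockUP.

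Ltb encodes lymphotoxin beta, which anchors lymphotoxin alpha at the cell surface and engages the lymphotoxin beta receptor on stromal and myeloid cells. Its level was 488, 450, 682 and 575 CPM in the 4 Foxp3UP libraries and 307, 232, 371 and 369 CPM in the MockUP libraries. Every Foxp3UP library was above every MockUP library, and above every library of the DN arm too, where Ltb ran from 319 to 390 CPM. The mean was 549 ± 103 CPM (SD, n = 4) against 320 ± 65.5, a 1.72-fold difference (log2 fold change 0.78 ± 0.14 (SE), edgeR adjusted p = 0.00228).

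Lta encodes lymphotoxin alpha, the partner of Ltb and also a secreted ligand of the TNF receptors. It ran from 19.3 to 38.0 CPM in Foxp3UP and from 24.4 to 40.5 CPM in MockUP. The groups overlapped, and the log2 fold change was -0.23 ± 0.24 (SE; edgeR adjusted p = 0.600). Its interval, -0.75 to 0.29, lies below that of Ltb (0.47 to 1.08). Tnf, the cytokine TNF itself, stood at 84.8, 92.4, 128 and 116 CPM in Foxp3UP and at 103, 107, 147 and 140 CPM in MockUP. These libraries overlapped as groups, yet each Foxp3UP library was lower than the MockUP library of the same number, by log2 ratios of -0.28, -0.21, -0.20 and -0.27. Tnf was not called (log2 fold change -0.24 ± 0.14 (SE), edgeR adjusted p = 0.314), but its adjusted p was 0.0117 with a replicate block within each arm, a setting added after the data were seen.

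Tnfsf8, which encodes CD30 ligand, a membrane protein of activated T cells that binds CD30, had the largest fall of the 9. Its level was 8.71, 17.8, 20.7 and 26.0 CPM in Foxp3UP and 34.0, 63.6, 91.9 and 90.3 CPM in MockUP. The highest Foxp3UP library lay below the lowest MockUP library, although MockUP itself varied widely. The mean was 18.3 ± 7.24 CPM against 69.95 ± 27.3 (SD, n = 4), a 3.83-fold fall (log2 fold change -1.94 ± 0.35 (SE), edgeR adjusted p = 0.00265). Between libraries of the same number the log2 ratio was -1.97, -1.83, -2.15 and -1.80.

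Tnfsf14 encodes LIGHT, a ligand of HVEM and of the lymphotoxin beta receptor, which is thus shared with the lymphotoxin alpha-beta complex. It was measured at 9.68, 13.8, 20.3 and 21.3 CPM in Foxp3UP and at 22.9, 31.4, 55.3 and 52.1 CPM in MockUP. The groups did not overlap, but the highest Foxp3UP and the lowest MockUP library were close. The mean fell 2.49-fold (log2 fold change -1.32 ± 0.31 (SE), edgeR adjusted p = 0.0117), and the adjusted p was 0.0553 when no filter on low counts was used. Same-numbered libraries gave log2 ratios from -1.45 to -1.19.

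Cd40lg encodes CD40 ligand, through which T cells license dendritic cells and B cells. It stood at 8.18, 7.97, 7.51 and 4.01 CPM in Foxp3UP and at 10.9, 19.5, 20.8 and 14.4 CPM in MockUP. All Foxp3UP libraries lay below all MockUP libraries, and replicate 4 lay well below the other Foxp3UP libraries. The log2 fold change was -1.23 ± 0.21 (SE; edgeR adjusted p = 0.00140), a 2.35-fold fall. The log2 ratio between same-numbered libraries was uneven, from -0.41 for number 1 to -1.84 for number 4.

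Tnfsf11 encodes RANKL, the ligand of RANK on osteoclast precursors and dendritic cells. Its level was 8.00, 11.6, 10.1 and 9.85 CPM in Foxp3UP and 14.5, 17.3, 20.96 and 15.8 CPM in MockUP. The groups were separate, with less spread than for the other ligands that fell. The log2 fold change was -0.79 ± 0.17 (SE; edgeR adjusted p = 0.00583), a 1.73-fold fall.

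The death ligands gave smaller differences. Fasl encodes Fas ligand, an effector of killing by CD8 T cells. It ran from 102 to 137 CPM in Foxp3UP and from 85.0 to 152 CPM in MockUP, with a log2 fold change of -0.07 ± 0.14 (SE; edgeR adjusted p = 0.794; interval -0.37 to 0.23). Its same-numbered ratios were positive in 2 pairs and negative in 2. Tnfsf10 encodes TRAIL, and it ran from 28.9 to 37.0 CPM in Foxp3UP and from 22.6 to 29.3 CPM in MockUP. The groups overlapped only between 28.9 and 29.3 CPM, and all 4 same-numbered ratios were positive (log2 0.03 to 0.68). The log2 fold change was 0.33 ± 0.17 (SE; edgeR adjusted p = 0.243), and the adjusted p was 0.0350 with the block within each arm. With that block 7 of the 9 ligands were called, against 25.3% of all genes.

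**Figure D2:**
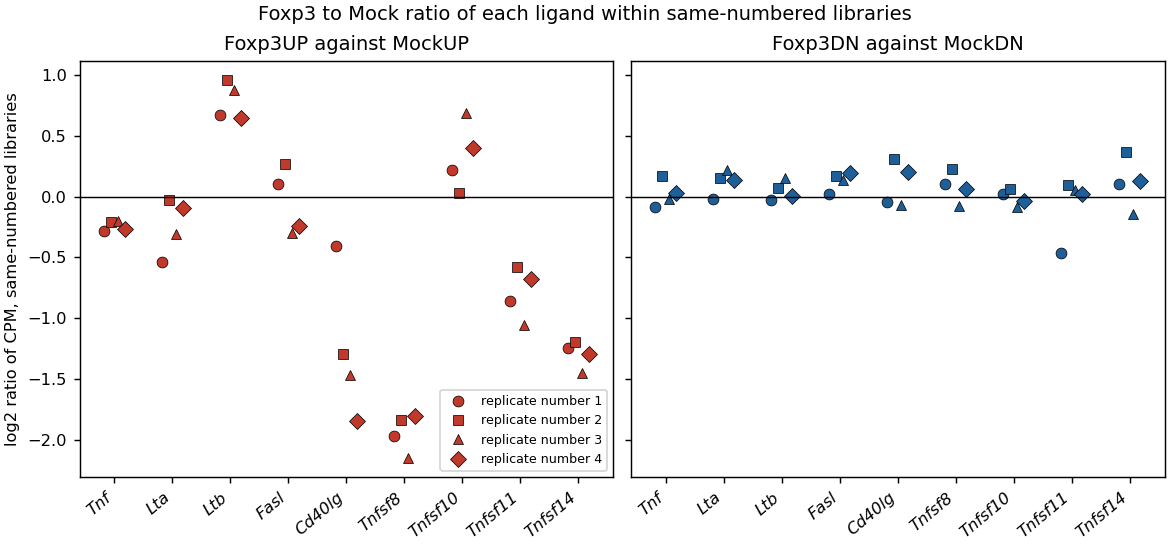
Log2 ratio of CPM between Foxp3 and Mock libraries with the same replicate number, for each ligand, in the UP arm (left) and the DN arm (right), with a symbol per replicate number. In the UP arm all 4 ratios have 1 sign for every ligand except Fasl, and those of Tnfsf8 lie between -2.15 and -1.80.

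None of these differences was called in the Foxp3DN cells. In Foxp3DN against MockDN no ligand was called by edgeR (0 of 9, with 0.00729% of all genes called), none had an unadjusted p under 0.05, and DESeq2 called 0 of 9. No ligand separated the groups, where 1.14% of all genes did. Log2 fold changes ran from -0.06 (Tnfsf11) to 0.14 (Lta). The intervals allow larger values for some ligands: that of Tnfsf8 ran from -0.65 to 0.76 and that of Ltb from -0.25 to 0.36. The 2 groups of controls, MockUP and MockDN, were likewise not called apart for any ligand by edgeR (0 of 9, with 0.00729% of all genes called, 0 at an unadjusted p under 0.05 and 0 by DESeq2). No ligand separated the controls, where 1.85% of all genes did.

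**Figure D3:**
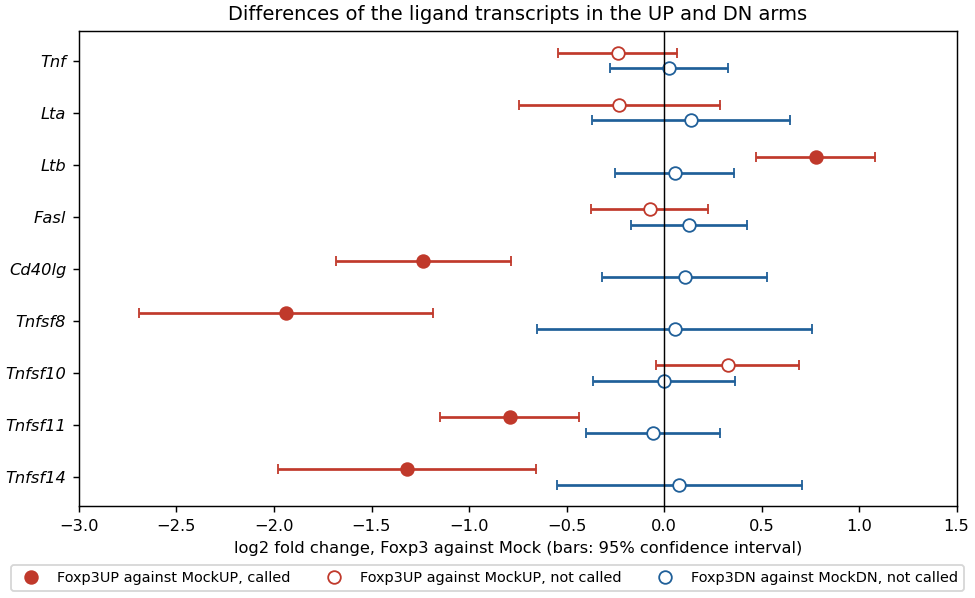
Log2 fold change of each ligand between Foxp3 and Mock cells in the UP arm (red) and the DN arm (blue), with 95% confidence intervals. Filled points passed the test. The 5 filled points, all in the UP arm, have intervals that exclude 0, while every interval of the DN arm includes 0.

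The difference between the 2 effects was tested directly. It was called lower in the UP arm for Cd40lg (log2 difference -1.34 ± 0.29 (SE), edgeR adjusted p = 0.0264) and for Tnfsf8 (-1.99 ± 0.48, edgeR adjusted p = 0.0483). These 2 of 9 stand against 1.83% of all genes. For Ltb the log2 difference was 0.72 ± 0.20 (SE; edgeR adjusted p = 0.0764), for Tnfsf14 -1.39 ± 0.43 (edgeR adjusted p = 0.107) and for Tnfsf11 -0.73 ± 0.23 (edgeR adjusted p = 0.119). With the replicate number as a block all 5 were called, with edgeR adjusted p-values of 0.0189 for Ltb, 0.000563 for Tnfsf14, 0.0484 for Tnfsf11, 0.0111 for Cd40lg and 0.000214 for Tnfsf8, against 5.91% of all genes. That block joins the same numbers across the arms. For numbers 1, 2 and 4, however, the MockUP library correlated more with a MockDN library of another number. The 2 calls without the block were fragile. The call for Cd40lg was lost without Foxp3UP 3, MockUP 3, Foxp3DN 4, MockDN 1, MockDN 2 or MockDN 4, each left out alone (adjusted p from 0.0518 to 0.0598). That for Tnfsf8 was lost with no filter (adjusted p = 0.138) and without any single library except Foxp3UP 4, MockUP 1, Foxp3DN 2 and MockDN 3 (0.0580 to 0.106).

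The order of the 4 groups was the same for 3 of the ligands that fell, and for Tnf, Lta and Fasl, which were not called. For Tnfsf8, Tnfsf14 and Cd40lg the mean was highest in Foxp3DN (72.9 ± 18.5, 51.1 ± 11.2 and 20.8 ± 2.55 CPM), followed by MockDN, MockUP and Foxp3UP. Only the last step, from MockUP to Foxp3UP, was without overlap. For Tnfsf11 MockUP was highest (17.1 ± 2.79 CPM) and the 3 groups above Foxp3UP (9.90 ± 1.48 CPM) overlapped. For Ltb, Foxp3UP was highest and the other 3 groups overlapped, from 364 ± 32.9 CPM in Foxp3DN to 320 ± 65.5 CPM in MockUP. For Tnf, Lta, Fasl and Tnfsf10 every pair of neighbours in the order overlapped.

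Levels of different genes were compared per kilobase of exon. Over all 16 libraries Ltb came first at 261 CPM per kb, above 98.7% of the genes tested. Tnf (74.4) and Fasl (70.7 CPM per kb) were close to each other and came next, and Tnfsf10 was last at 5.34 CPM per kb. Of the summed level per kb of the 9 ligands, Ltb took 66.9 ± 1.70% in Foxp3UP (SD, n = 4), 47.6 ± 2.84% in MockUP, 47.5 ± 1.84% in Foxp3DN and 48.0 ± 2.74% in MockDN. The lowest Foxp3UP library, at 65.6%, was above the highest of the other groups, at 51.9%. Tnfsf8 took 0.884 ± 0.308% in Foxp3UP and 4.09 ± 1.22% in MockUP. The scaling of the libraries cancels in these shares.

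**Figure D4:**
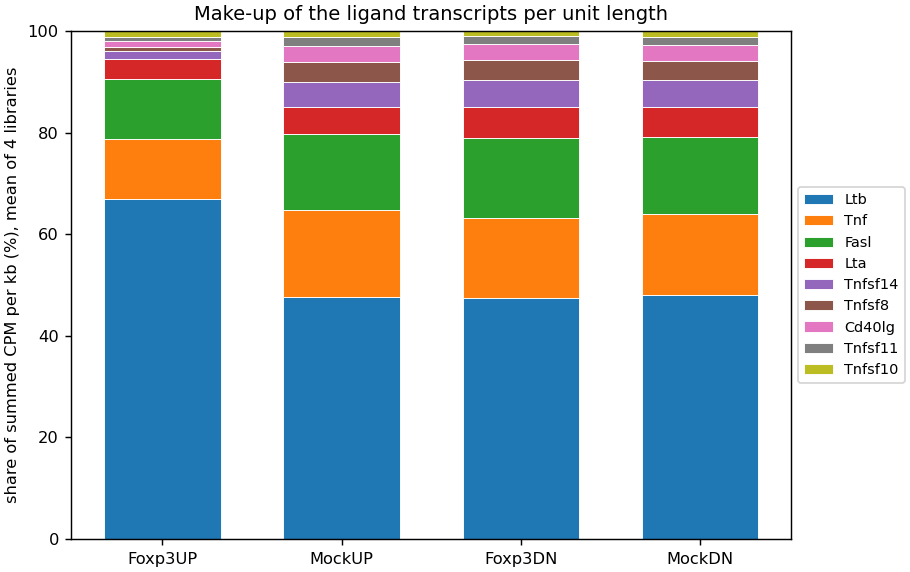
Share of the summed CPM per kb of the 9 ligands taken by each ligand (%), mean of the 4 libraries of each group, stacked to 100%. Ltb takes 66.9% in Foxp3UP and between 47.5% and 48.0% in the other 3 groups.

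Several ligands also varied between libraries of 1 group in a shared way. In all 4 groups, both of replicates 3 and 4 lay above both of replicates 1 and 2 for Tnf, Lta, Tnfsf8 and Tnfsf14. The ratio of the means was 1.55 to 1.87 for Tnfsf8, 1.47 to 1.98 for Tnfsf14, 1.49 to 1.63 for Lta and 1.15 to 1.38 for Tnf. The sample numbers in the titles place replicates 1 and 2 before 3 and 4, but no label names a batch, and the source of this split was not tested. Within replicates 1 and 2 alone the log2 fold changes of Foxp3UP against MockUP were 0.79 for Ltb, -1.88 for Tnfsf8, -1.21 for Tnfsf14, -0.91 for Cd40lg and -0.70 for Tnfsf11, with no ligand called by edgeR (adjusted p from 0.0818 to 0.189 for these 5), where 0.221% of all genes were called. Within replicates 3 and 4 alone they were 0.74, -1.99, -1.39, -1.62 and -0.90, and 8 of the 9 ligands were called, all but Lta, where 22.2% of all genes were called. Fasl had opposite signs in the 2 sets, at 0.16 and -0.29.

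As a description over 16 libraries, the log2 levels of Tnfsf8 and Tnfsf14 had a Pearson r of 0.98, and 0.96 after the group means were removed. Tnf and Lta had r = 0.87 (0.85 within groups). Ltb and Cd40lg had r = -0.73 over all libraries and -0.21 within groups. The points share their libraries, the differences between groups, and the split between replicates 1 and 2 and replicates 3 and 4. The likeness of other genes was ranked over all 16 libraries with the group means left in. A gene that shares the Foxp3UP difference therefore ranks high. Among the 10050 genes compared, the genes most like Tnfsf8 were Btla, Pus7 and Nolc1 (r = 0.98 each), and those most like Tnfsf14 were Gnl3, Ppan and Jaml (0.98 each). Those most like Ltb were Ighm (0.97), H2-DMa (0.96) and Vmp1 (0.95). Cd40lg was closest to Tcf7 (0.93), Slc30a5 (0.92) and Pnpt1 (0.92), and Tnfsf11 to Id3 (0.93), Thumpd1 (0.93) and Ddx31 (0.92).

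On the receptor side, Tnfrsf8, which encodes CD30, the receptor of CD30 ligand, rose where its ligand fell. Its level was 9.15, 7.88, 7.31 and 4.22 CPM in Foxp3UP and 2.02, 2.56, 0.604 and 1.40 CPM in MockUP. The groups did not overlap, at a low level throughout. The log2 fold change was 2.10 ± 0.34 (SE; edgeR adjusted p = 0.000977), and the difference from the DN arm was 2.56 ± 0.54 (edgeR adjusted p = 0.0233, but 0.0722 without MockDN replicate 1 and 0.0512 without MockDN replicate 4). Of the 10 receptor genes of these ligands 7 were tested, 2 were called higher and none lower, against 6.08% of all genes called higher and 5.99% lower. The other was Tnfrsf1a (TNFR1), at 25.6 ± 4.06 against 19.1 ± 1.26 CPM (log2 fold change 0.42, edgeR adjusted p = 0.0296). Its call was lost without Foxp3UP 1, 3 or 4 or MockUP 1 or 4, each left out alone (adjusted p from 0.0506 to 0.102), and when libraries were scaled by their totals (adjusted p = 0.0536), with no filter (0.119) or when only the UP arm was fitted (0.138). Tnfrsf1b, Fas, Tnfrsf14, Tnfrsf10b and Cd40 were not called, with log2 fold changes from -0.27 (Fas) to 0.35 (Cd40). The lymphotoxin beta receptor Ltbr, with 59 counts over all 16 libraries, the RANK gene Tnfrsf11a, with 25, and the decoy receptor gene Tnfrsf11b, with 72, were too low to be tested. Tnfrsf1b (TNFR2) was the receptor with the most counts, at 429 ± 53.6 CPM in Foxp3UP and 435 ± 130 CPM in MockUP.

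**Figure D5:**
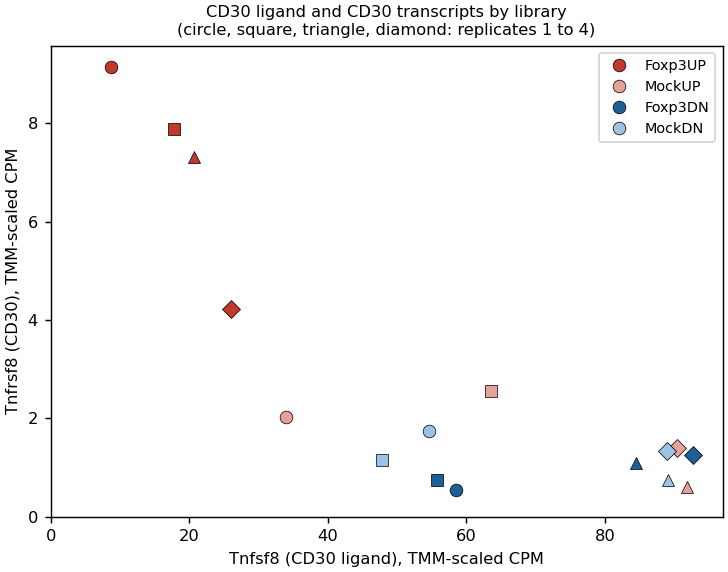
Level of CD30 ligand (Tnfsf8, x axis) against CD30 (Tnfrsf8, y axis) in each of the 16 libraries, in TMM-scaled CPM on linear axes, coloured by group and with a symbol per replicate number. The 4 Foxp3UP libraries lie at 4.22 CPM or more of Tnfrsf8 and at 26.0 CPM or less of Tnfsf8, apart from the other 12.

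Of the 9 further ligands of the superfamily 4 were tested, and 1 was called lower, against 5.99% of all genes. It was Tnfsf4, which encodes OX40 ligand, at 2.32 ± 0.964 CPM in Foxp3UP against 4.61 ± 1.74 CPM in MockUP. Its libraries overlapped, at 0.968 to 3.25 CPM in Foxp3UP and 2.30 to 6.06 CPM in MockUP. Its log2 fold change was -0.99 (edgeR adjusted p = 0.0477). That call was lost without Foxp3UP 1, 2 or 3 or MockUP 2, 3 or 4, each left out alone (adjusted p from 0.0648 to 0.125), and when only the UP arm was fitted (0.162). Tnfsf9 (4-1BB ligand) was the most abundant of them and was not called, at 37.0 ± 8.51 against 33.9 ± 10.1 CPM. Tnfsf13, Tnfsf18 and Eda had no count in any library, which allows up to 3 counts per library, or 0.227 to 0.320 CPM. Tnfsf12 and Tnfsf15 had 2 and 5 counts over all libraries.

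The next 3 lists hold genes downstream of or around the ligands. In Foxp3UP against MockUP 2 of 14, 1 of 15 and 2 of 9 of them were called, where 12.1% of all genes were. Their median log2 fold changes were 0.02, -0.27 and -0.24 in the same order, against 0.0041 over all genes tested. Of 14 adaptor and death-signalling genes, Casp8, the initiator caspase, rose (log2 fold change 0.41, edgeR adjusted p = 0.00810) and Traf6 fell (-0.45, edgeR adjusted p = 0.0305). Of 15 NF-kappaB pathway genes only Rel, the c-Rel subunit, was called lower (-0.65, edgeR adjusted p = 0.0462). With the replicate block 2 were called lower, against 8.38% of all genes. With the block within each arm 8 were called lower, against 12.0% of all genes. Of the 9 regulators of TNF mRNA decay, Zfp36l1 (-0.64, edgeR adjusted p = 0.0193) and Elavl1 (-0.24, edgeR adjusted p = 0.0420) fell. Of 8 genes of ligand shedding 6 were tested, and Mmp9, a secreted gelatinase, rose (5.61 ± 0.36 (SE), edgeR adjusted p = 8.54e-08, 46.3 CPM in Foxp3UP against 0.939 CPM in MockUP), while Adam17, the sheddase of TNF, had a log2 fold change of 0.02 (edgeR adjusted p = 0.933). None of 9 calcium and NFAT genes was called by edgeR or DESeq2, and 2 had an unadjusted p under 0.05. The calls for Casp8, Traf6, Rel, Zfp36l1 and Elavl1 were lost when only the UP arm was fitted (adjusted p from 0.0689 to 0.137), and that for Zfp36l1 without Foxp3UP 1 (0.0613). All 5 were also lost with replicates 1 and 2 only (edgeR adjusted p from 0.198 to 0.439). With no filter, Rel and Elavl1 were lost (edgeR adjusted p = 0.124 and 0.219). Rel and Elavl1 were each lost in 7 of the 8 fits that left out 1 library of the UP arm, all but those without MockUP 1 and MockUP 2 in turn, and Traf6 in 5, without MockUP 2 or any Foxp3UP library.

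The marker counts below stand against 12.1% of all genes called in Foxp3UP against MockUP, 6.08% higher and 5.99% lower. The libraries of these groups did not overlap for 15.9% of all genes. The summed level of 9 macrophage and monocyte markers was 52.9 to 74.0 CPM in Foxp3UP and 36.4 to 54.4 CPM in MockUP. Of these, 1 of the 8 tested, Cd68, rose (log2 fold change 0.86, edgeR adjusted p = 0.00207), or 2 with the replicate block. The sum of 6 dendritic cell markers was 33.9 to 52.8 CPM against 56.8 to 96.8 CPM, with Siglech at 0. Of the 3 tested only Itgax was called, and it was lower (-1.45, edgeR adjusted p = 0.000473). The 2 others tested had log2 fold changes of -0.0082 and 0.022. Of the CD4 T cell markers Zbtb7b and Cd4, which summed to 8.63 to 13.1 CPM in Foxp3UP and 6.45 to 8.24 CPM in MockUP without overlap, only Zbtb7b was tested. It was not called (log2 fold change 0.60, edgeR adjusted p = 0.0595), but was with the replicate block (0.0430). Cd4 was at 0.264 to 0.758 CPM in Foxp3UP and 0.184 to 0.324 CPM in MockUP. The 4 NK and innate lymphoid markers summed to 1.62 to 3.65 CPM against 2.59 to 9.38 CPM, with Kit at a log2 fold change of -1.43 (edgeR adjusted p = 0.130, and 0.00967 with the replicate block) and Klrb1c at -0.78 (edgeR adjusted p = 0.296). The B cell markers Ms4a1 and Pax5 were at 0 in every group, and the 5 B cell markers summed to 4.56 to 7.91 CPM in Foxp3UP and 3.79 to 5.83 CPM in MockUP. Markers of melanocytes and melanoma (5 genes) summed to 51.5 to 110 CPM in Foxp3UP and 48.1 to 73.4 CPM in MockUP. In the DN arm they summed to 27.7 to 60.7 CPM in Foxp3DN and 18.3 to 56.0 CPM in MockDN. The 6 fibroblast and endothelium markers summed to 54.3 to 67.8 CPM in Foxp3UP and 48.9 to 68.5 CPM in MockUP. In Foxp3UP against MockUP 0 of 4 and 0 of 2 tested were called by edgeR (0 and 1 with the replicate block). The part of RNA from any of these cells in the ligand differences was not tested. The T cell identity markers summed to 4896 to 5895 CPM in Foxp3UP and 3177 to 5345 CPM in MockUP, with 0 of 6 called by edgeR, 0 by DESeq2, 1 at an unadjusted p under 0.05 and 1 with the replicate block.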

How the data were processed

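RNA-seq of sorted cells was analysed in 16 libraries. The authors deposited whole-number counts per gene for every library. Per the submitters' processing notes, STAR 2.6.1, Subread 1.6.3 and build mm10 were used. Strand use, counting options and the gene annotation are likewise not given in the sources used here. Columns were matched to samples by the sample number in the titles. Of 55573 identifiers, 55394 were found in GENCODE M21, which gave the symbols. Depth was 9389477 to 13226590 counts, and floors for genes without a count cover counting error only.

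Genes were kept with filterByExpr at a minimum count of 10 (13711 genes), scaled by TMM and tested over all 16 libraries with edgeR 4.0.16 (R 4.3.3; robust quasi-likelihood F test, two-sided, Benjamini-Hochberg adjusted p under 0.05 over all genes). Levels are TMM-scaled CPM. SE came from the size of the log2 fold change over the root of F, and intervals are at 95%. The pipeline was tested on simulated data.

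Alternatives were RLE factors, library totals, no filter, at least 1 CPM in 4 libraries, DESeq2 1.42.0, only the groups compared, the replicate number as a block, each set of replicate numbers, and leaving out each library. Deviations of same-numbered Foxp3 and Mock libraries correlated at 0.213 to 0.630 in the UP arm and 0.298 to 0.582 in the DN arm. The highest correlation with another number was lower each time, at 0.172 to 0.237 in the DN arm. In the UP arm it was 0.0444 for number 1, but close for number 2 (0.173 against 0.213), 3 (0.220 against 0.297) and 4 (0.364 against 0.398). Across the arms, MockUP and MockDN libraries of the same number correlated at 0.185, 0.107, 0.326 and 0.271 for numbers 1 to 4. The highest correlation with another number was 0.594, 0.124, 0.300 and 0.298, so only number 3 was closest to its own number. The main test had no replicate block, although same-numbered libraries within an arm were compared as pairs. A block within each arm was added after the data were seen.

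All 9 members were named whatever their result, with up to 4 called genes per list and comparison and the 3 genes most correlated (log2 CPM, prior count 2, average log2 CPM of at least 1, predicted genes left out) with each called member. Other genes named without a call were chosen after their values were seen. The members and lists were chosen with earlier results of these data known. Promoters were read from a RefSeq table on GRCm38.p6.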

Additional observations from a re-analysis of the deposited data

Results flagged for a closer look

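Of 36 combinations of ligand and group, 1 held a library far from the other 3: Cd40lg in Foxp3UP replicate 4, at 4.01 CPM beside 7.51 to 8.18 CPM. Chance alone gives such a library in about 1 of 20 groups.

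The effect of Foxp3 against Mock was called different between the UP and DN arms, by the test of the difference itself, for 2 ligands. For Cd40lg the log2 difference was -1.34 (edgeR adjusted p = 0.0264). Cd40lg was lower in 4 of 4 same-numbered pairs of the UP arm and in 2 of 4 of the DN arm. For Tnfsf8 the log2 difference was -1.99 (edgeR adjusted p = 0.0483), with Tnfsf8 lower in 4 of 4 pairs and in 1 of 4. Both calls were fragile. The call for Cd40lg was lost in 6, and that for Tnfsf8 in 12, of the 16 fits that left out 1 library. With replicates 1 and 2 only, neither was called (edgeR adjusted p = 0.448 and 0.398).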

How the results depend on the processing

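The 5 ligands called in Foxp3UP against MockUP remained called in each of the 8 fits that left out 1 library of these groups. The count was 0 with replicates 1 and 2 only and 8 with replicates 3 and 4 only. For the difference of effects the count was 2, and it became 1 with no filter, 4 with DESeq2, 5 with the replicate block, 5 with the block within each arm, 0 with replicates 1 and 2 only, 6 with replicates 3 and 4 only, and 0 to 3 when single libraries were left out (0 without Foxp3UP 3, MockUP 3, Foxp3DN 4, MockDN 1, MockDN 2 or MockDN 4). The cause was not tested.

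Over all genes, 1654 were called in Foxp3UP against MockUP. The count was 3475 with the block within each arm, 658 when only these groups were fitted, 31 and 3025 in the 2 replicate sets, 1064 without Foxp3UP 1 and 1097 without Foxp3UP 3. With library totals it split into 646 higher and 1081 lower, against 833 and 821. The difference of effects had 251 calls, 651 with DESeq2, 811 with the replicate block, 1739 with the block within each arm, 2 and 1688 in the replicate sets, and 99 to 518 without single libraries. Foxp3DN against MockDN had 1 call, and 0 and 3 in the replicate sets. MockUP against MockDN had 1 call, 2 with no filter, 8 with DESeq2 and 35 with replicates 3 and 4 only. The block within each arm cannot give MockUP against MockDN. The replicate block across arms changed no call of a ligand outside the difference of effects.

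Log2 fold changes that changed sign were those of ligands not called, and their cause was not tested. For Fasl, Foxp3UP against MockUP was 0.16 with replicates 1 and 2 only and -0.23 to 0.0063 with single libraries left out, and the difference of effects was 0.068 with replicates 1 and 2 only. In Foxp3DN against MockDN, Tnfsf10 was 0.0023 with RLE factors, 0.0044 with no filter, 0.0025 with DESeq2 and 0.052 with replicates 1 and 2 only. With replicates 3 and 4 only, Tnfsf8 was -0.012, Tnfsf14 was -0.021 and Tnfsf11 was 0.035. Single libraries left out gave -0.032 to 0.10 for Tnf, -0.056 to 0.28 for Lta, -0.092 to 0.19 for Tnfsf8, -0.18 to 0.14 for Tnfsf10, -0.17 to 0.057 for Tnfsf11 and -0.083 to 0.27 for Tnfsf14. In MockUP against MockDN, Tnfsf8 was 0.0016 with RLE factors, 0.0010 with library totals and 0.0020 with DESeq2. With replicates 3 and 4 only, Tnfsf8 was 0.027, Tnf was 0.040, Ltb was 0.052 and Fasl was 0.16, and Tnfsf10 was 0.0038 with replicates 1 and 2 only. Single libraries left out gave -0.14 to 0.021 for Tnf, -0.23 to 0.013 for Fasl, -0.17 to 0.21 for Tnfsf8, -0.16 to 0.063 for Tnfsf10 and -0.10 to 0.084 for Tnfsf11.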
